A study of Mus musculus with 18 samples.

Results

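Of the 16216 H3K4me3 peaks listed for EPZ6438-treated MC3T3-E1 cells, 2347 lay more than 5 kb from the start and the end of every gene in the deposited expression table. They are called distant peaks here. They were chosen by position alone, without their height or any RNA value, and were split by whether they lay inside a gene interval (1080, or 46.0%) or outside all of them (1267), and by whether at least 1 bp was covered by the H3K4me3 list of the DMSO arm (1013, or 43.2%). The 4 resulting classes held 510 peaks inside genes and in the DMSO list, 570 inside genes and in the EPZ6438 list only, 503 outside genes and in the DMSO list, and 764 outside genes and in the EPZ6438 list only. The closest members to the limit lay 5008 bp from Socs2 and 5013 bp from Mrpl45, and a peak just left out lay 4994 bp from Gm14127.

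MC3T3-E1 subclone 4 is a clonal line of C57BL/6 mouse calvarial pre-osteoblasts, used here at passage 9. Both arms were kept in osteogenic medium, with ascorbic acid and a phosphate donor, for 3 days. EPZ6438, which blocks the methyltransferase activity of EZH2, was given to one arm at 2.5 µM, and the other had 0.25% DMSO; the labels do not say whether the EPZ6438 arm also held DMSO. RNA came from 3 samples per arm and each histone mark from 2 samples per arm, and the peaks of both samples are merged in 1 list. Peak comparisons between arms therefore have no replicate error, the depth behind them is unknown, and a peak missing from a list is not shown to lack the mark. Nothing says that the RNA samples were separate cultures, so the p-values rest on a spread that may be technical.

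H3K4me3 is written by SET1 and MLL complexes and is best known from active and poised promoters, above all those rich in CpG dinucleotides, where CXXC-domain proteins bind unmethylated DNA. Away from the ends of annotated genes it is found at alternative promoters, at unannotated promoters and, at lower levels, at some enhancers. H3K27me3 is written by Polycomb repressive complex 2, of which EZH2 is the catalytic subunit, and regions that carry both marks are called bivalent. Retinoic acid, Wnt and activin signalling, to which several genes below belong, act in skeletal development.

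A gene interval has 1 start and 1 end, whereas many genes have several promoters. RefSeq start windows (GRCm38.p6, the mm10 assembly) were therefore compared with the distant peaks. Each window runs from 250 bases before to 50 bases after an annotated start. Of the distant peaks 254 (10.8%) overlapped such a window, against 34.2% of the peaks within 5 kb of a gene end. Of the 254, 202 lay inside a gene, and 182 lay on a window of the gene that held them. The hosts of 131 of those 182 had more than 1 start window. The windows below are shown because they carry distant peaks that the results turn on. Prrx2 and Mme lie under the widest and third-widest peak inside a gene, Mbnl1 under a wide peak of the EPZ6438 list only, Pcgf5 and Cplx2 under peaks outside genes, and Pappa2 and Prickle1 under peaks in genes whose RNA passed the test. Each sequence reads 5′ to 3′ on the strand of its gene, and capitals mark CG dinucleotides.
Prrx2: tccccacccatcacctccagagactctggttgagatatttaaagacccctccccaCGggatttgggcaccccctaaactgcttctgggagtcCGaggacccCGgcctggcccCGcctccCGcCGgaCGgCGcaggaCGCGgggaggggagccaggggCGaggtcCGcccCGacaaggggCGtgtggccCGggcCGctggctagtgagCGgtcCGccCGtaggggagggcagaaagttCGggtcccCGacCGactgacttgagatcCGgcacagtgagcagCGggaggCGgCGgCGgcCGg
Mme: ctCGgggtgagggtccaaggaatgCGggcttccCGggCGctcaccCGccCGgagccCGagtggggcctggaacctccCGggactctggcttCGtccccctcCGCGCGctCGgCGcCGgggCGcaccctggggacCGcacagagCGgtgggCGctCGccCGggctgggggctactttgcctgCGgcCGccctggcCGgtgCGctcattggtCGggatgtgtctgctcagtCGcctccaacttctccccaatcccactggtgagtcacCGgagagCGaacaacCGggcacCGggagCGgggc
Mbnl1: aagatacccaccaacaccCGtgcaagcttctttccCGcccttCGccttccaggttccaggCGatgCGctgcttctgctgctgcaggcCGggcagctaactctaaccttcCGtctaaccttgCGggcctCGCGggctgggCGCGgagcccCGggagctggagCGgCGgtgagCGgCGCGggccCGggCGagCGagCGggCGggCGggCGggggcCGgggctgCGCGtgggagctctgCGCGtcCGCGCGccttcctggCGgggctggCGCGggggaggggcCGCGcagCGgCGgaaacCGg
Pcgf5: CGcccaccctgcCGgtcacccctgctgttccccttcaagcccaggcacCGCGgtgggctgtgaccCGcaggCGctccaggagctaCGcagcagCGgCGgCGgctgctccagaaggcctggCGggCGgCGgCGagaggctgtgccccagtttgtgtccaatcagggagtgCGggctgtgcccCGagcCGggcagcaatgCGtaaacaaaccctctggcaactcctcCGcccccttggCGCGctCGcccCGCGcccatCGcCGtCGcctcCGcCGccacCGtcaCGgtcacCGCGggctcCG
Cplx2: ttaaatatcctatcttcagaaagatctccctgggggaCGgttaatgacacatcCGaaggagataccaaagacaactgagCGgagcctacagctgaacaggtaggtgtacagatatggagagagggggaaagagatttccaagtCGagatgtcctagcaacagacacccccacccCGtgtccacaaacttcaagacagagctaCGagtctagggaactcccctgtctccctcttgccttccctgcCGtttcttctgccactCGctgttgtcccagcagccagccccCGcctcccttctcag
Pappa2: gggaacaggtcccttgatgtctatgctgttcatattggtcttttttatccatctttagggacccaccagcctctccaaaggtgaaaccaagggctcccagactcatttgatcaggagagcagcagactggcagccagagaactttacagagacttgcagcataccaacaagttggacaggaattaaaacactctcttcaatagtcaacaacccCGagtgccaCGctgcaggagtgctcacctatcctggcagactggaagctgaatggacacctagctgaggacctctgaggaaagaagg
Prickle1: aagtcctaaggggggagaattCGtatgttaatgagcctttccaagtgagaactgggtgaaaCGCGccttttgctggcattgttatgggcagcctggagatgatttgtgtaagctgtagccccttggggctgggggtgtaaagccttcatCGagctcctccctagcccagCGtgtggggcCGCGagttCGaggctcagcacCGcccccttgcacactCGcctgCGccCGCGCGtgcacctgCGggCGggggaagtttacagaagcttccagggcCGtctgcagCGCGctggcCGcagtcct

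Prrx2, a homeobox gene of limb and craniofacial mesenchyme, has 28 CG dinucleotides in the window shown (chr2:30845117-30845416, plus strand). Mme, which encodes the cell-surface peptidase neprilysin, has 32 (chr3:63295622-63295921, plus strand). Mbnl1, a splicing regulator, has 41 (chr3:60500929-60501228, plus strand), and Pcgf5, a Polycomb group RING finger gene, has 34 (chr19:36348079-36348378, plus strand). Prickle1, of planar cell polarity signalling, has 20 (chr15:93519471-93519770, minus strand). The windows of Cplx2, a regulator of vesicle release, with 9 (chr13:54302306-54302605, plus strand), and of Pappa2, a protease of insulin-like growth factor binding proteins, with 2 (chr1:158958126-158958425, minus strand), had the fewest of the 7 printed.

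Over the 294 different windows that overlapped a distant peak the median was 23 CG dinucleotides and 65.7% G or C, and 86.1% of them held at least 10 CG. Over all 32851 windows in the table the values were 7, 52.7% and 43.5%. Windows under peaks within 5 kb of a gene end (5534) had a median of 26 CG, with 94.7% at 10 or more, and windows with no H3K4me3 peak of either arm a median of 5. The letters GGGCGG, searched on both strands, were present in 67.7% of windows under distant peaks and in 35.7% of all windows. Windows under peaks within 5 kb of a gene end had them in 74.7%. The motif holds a CG itself, so it overlaps with the CG count. TATAAA was present in 2.38% of windows under distant peaks, 4.21% under near peaks and 13.6% of all windows. For CCAAT the shares were 35.4%, 33.6% and 37.4%. For CCGGAAG they were 10.5%, 20.8% and 8.86%, and for TGACGTCA 1.36%, 3.27% and 1.79%. Windows on chromosome 18 were not used, and over the other chromosomes 11.2% of distant peaks overlapped a window. The motif counts are matches of letters, not sites of a factor, and the windows of 1 gene can overlap each other.

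Distant peaks were narrow. Their median width was 283 bp (95% interval from order statistics 278 to 289 bp, range 229 to 2528 bp), against 427 bp for the 13869 peaks within 5 kb of a gene end. The list has no peak under 229 bp, and 28.2% of the distant peaks were within 10 bp of that minimum, against 10.8% of the others. Width differed between the classes. Peaks inside genes and in the DMSO list had a median of 434.5 bp, those inside genes and in the EPZ6438 list only 277.5 bp, those outside genes and in the DMSO list 291 bp, and those outside genes and in the EPZ6438 list only 247.5 bp. In the last class 42.9% were within 10 bp of the minimum.

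**Figure D1:**
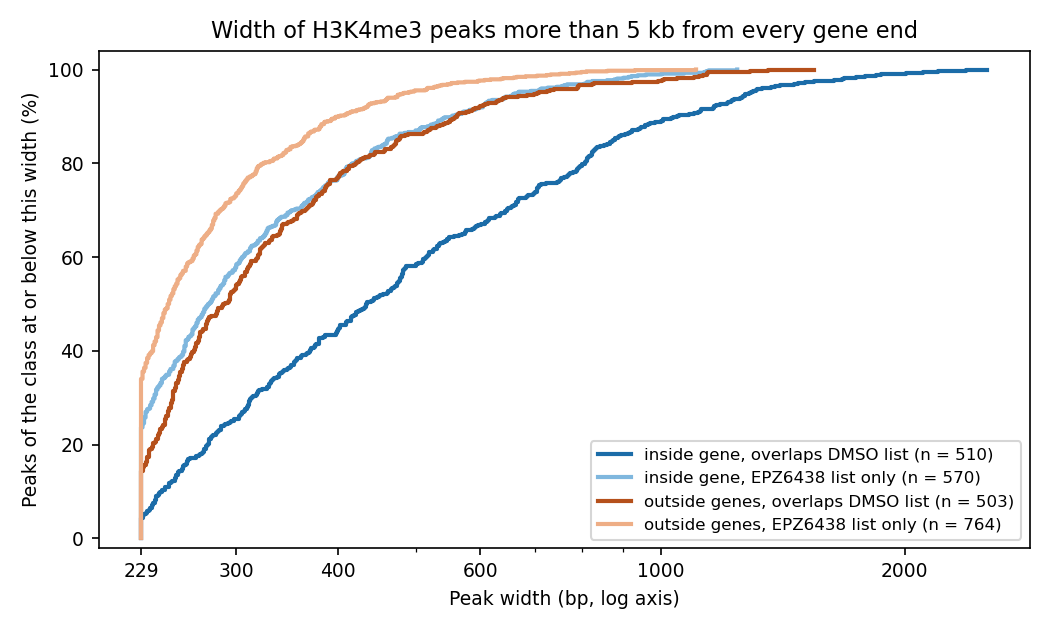
Cumulative share of peaks (percent, vertical axis) by peak width (bp, log axis) for the 4 classes of distant H3K4me3 peaks, 1 line per class. The line of peaks inside genes and in the DMSO list lies to the right of the other 3 (median 434.5 bp), and that of peaks outside genes and in the EPZ6438 list only rises earliest (247.5 bp).

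The share of distant peaks found in the DMSO list rose with width, from 31.0% of those under 300 bp to 47.7%, 56.5% and 71.1% in the next bins and 90.8% of those of at least 1000 bp. Peaks within 5 kb of a gene end had 28.2% and 92.3% in the narrowest and widest bin. Distant peaks were thus slightly above near peaks of like width in the narrow bins and below them in the wide ones, for example 71.1% against 76.9% in the bin before the widest. The share inside a gene went from 35.7% to 82.9% over the same bins, and the share on a RefSeq start window from 3.81% to 51.3%. The widest bin held 76 distant peaks.

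**Figure D2:**
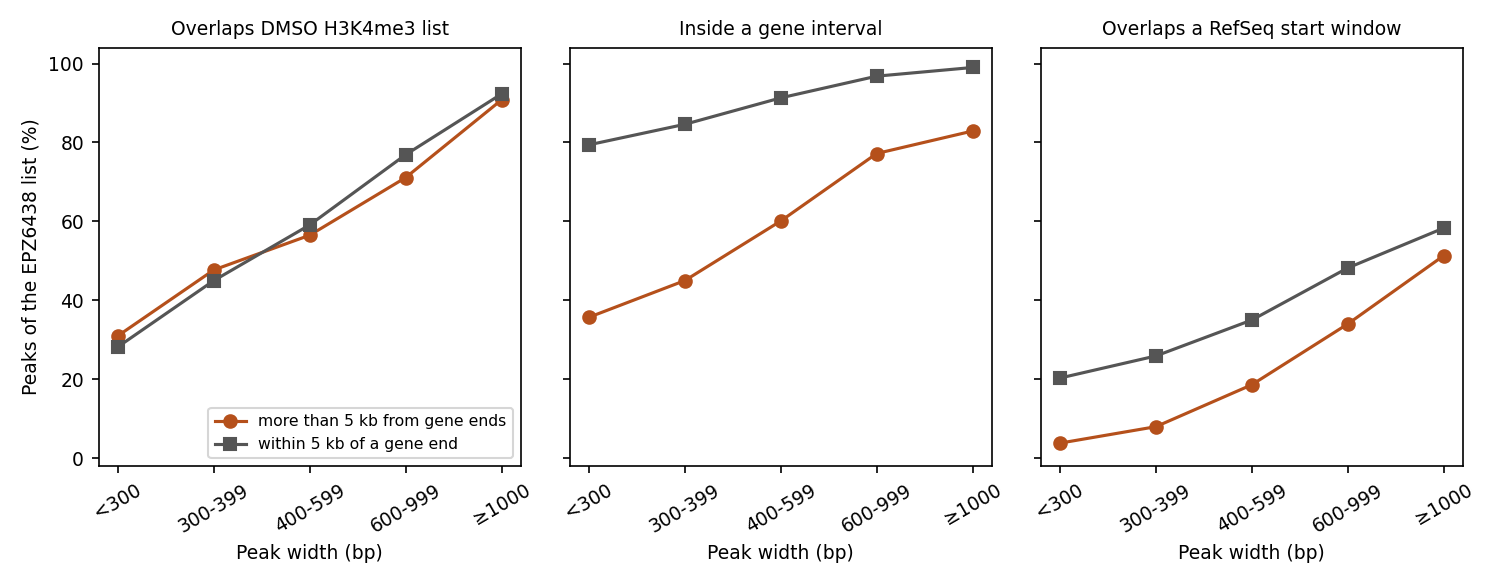
Share of EPZ6438 H3K4me3 peaks (percent) in each width bin that overlap the DMSO H3K4me3 list, lie inside a gene interval, or overlap a RefSeq start window, with distant peaks in orange and peaks within 5 kb of a gene end in grey. In the left panel both lines run together, from 31.0% and 28.2% to 90.8% and 92.3%, while in the other panels the distant peaks lie lower.

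The 5 widest distant peaks inside genes lay in Prrx2, Fgfr1, Mme, Rreb1 and Phf21a, and all 5 were in the DMSO list. The peak at chr2:30845077-30847604 (2528 bp) was in Prrx2, and 1319 bp of it were covered by the DMSO list. Prrx2 RNA was 70.3, 97.6 and 130 RPKM in the DMSO libraries and 68.7, 103 and 84.1 RPKM in the EPZ6438 libraries, so the arms overlapped. The peak at chr8:25518826-25521206 (2381 bp) lay in Fgfr1, a fibroblast growth factor receptor, 5172 bp from its nearer end, and overlapped no start window. Fgfr1 had 58.0, 67.4 and 74.8 RPKM with DMSO and 79.1, 88.1 and 79.5 RPKM with EPZ6438; every EPZ6438 library was higher, but the test was not passed (limma adjusted p = 0.158). In Mme the peak spanned chr3:63294972-63297166 (2195 bp), 242 bp of which were in the DMSO list, and RNA went from 44.2 ± 8.10 to 54.7 ± 5.61 RPKM (SD, n = 3 per arm; limma adjusted p = 0.274). The next widest lay on start windows of Rreb1, a zinc finger transcription factor, and Phf21a, a reader of unmethylated H3K4. Neither passed the test (adjusted p = 0.161 and 0.282).

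The widest peaks inside genes that did not overlap the DMSO list lay in Nav2 (chr7:49246415-49247657, 1243 bp), Foxn3 (1146 bp), Irs1 (1139 bp), Lmna (1132 bp) and Mbnl1 (1069 bp). Nav2 is a neuron navigator gene, Foxn3 a forkhead repressor, Irs1 an adaptor of the insulin receptor and Lmna the lamin A and C gene. In none of the 5 did RNA pass the test. Irs1 had 58.3 to 61.1 RPKM with DMSO and 55.2 to 60.3 RPKM with EPZ6438. Lmna had 67.9, 102 and 149 RPKM with DMSO and 101, 161 and 128 RPKM with EPZ6438, a wide spread that overlapped. The Irs1, Lmna and Mbnl1 peaks each lay under 1 kb from another H3K4me3 peak of the same list, as did 609 (25.9%) of all distant peaks. In Irs1, Lmna and Mbnl1 that neighbour, 122, 888 and 330 bp away, overlapped the DMSO list by 681, 192 and 317 bp. The marked stretch in these genes was thus partly listed in both arms.

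Outside genes, the widest peak of the EPZ6438 list only (chr9:21320346-21321451, 1106 bp) lay 8013 bp from Ap1m2, an adaptor subunit gene listed at 0 RPKM in every library, and overlapped RefSeq start windows of Slc44a2 and Gm39302. The next widest of that class were nearest to Gm6425, Gsn, Ccdc82 and Vmn2r82. Gsn, the actin-severing protein gelsolin, had 189, 233 and 279 RPKM with DMSO and 309, 386 and 341 RPKM with EPZ6438. The arms did not overlap, and the test was narrowly missed (adjusted p = 0.0749). The widest peak outside genes in the DMSO list (chr4:3089594-3091138, 1545 bp) was covered over its whole width by DMSO H3K4me3 and over 1510 bp by DMSO H3K27me3, with 0 bp in the EPZ6438 H3K27me3 list; its nearest gene, the pseudogene Vmn1r-ps2, was listed at 0. Cplx2 and Pcgf5 were the nearest genes of 2 others of that class, 67769 and 29690 bp away by the table although the peaks lay on RefSeq starts of these same genes. Cplx2 had 7.23, 8.15 and 8.98 RPKM with DMSO and 5.86, 6.54 and 5.62 RPKM with EPZ6438 (adjusted p = 0.0839), with no overlap between the arms.

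Several genes held many distant peaks. Of 767 host genes 542 held 1, 142 held 2 and 54 held 3. The most were in 2010111I01Rik, an aminopeptidase gene, with 8, Plec with 7, Rara with 7, Foxp1 with 6 and Bcor with 5, a number that 5 other genes also held. Plec, which encodes the cytoskeletal linker plectin and is known for alternative first exons, held its 7 between chr15:76194778 and chr15:76206777. None of these Plec peaks overlapped a RefSeq start window. In Rara, the retinoic acid receptor alpha gene, the widest spanned chr11:98959658-98961118 (1461 bp), and 3 of the 7 overlapped Rara start windows. Plec RNA was 17.4, 29.0 and 39.5 RPKM with DMSO and 25.3, 35.9 and 29.3 RPKM with EPZ6438, with overlap. Of the 5, Foxp1, a forkhead transcription factor, passed the test: 5.45, 6.06 and 5.36 RPKM with DMSO against 4.21, 3.77 and 4.07 RPKM (log2 change -0.47, SE 0.11, limma adjusted p = 0.0459), a call lost without any single library.

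Where strand was known from RefSeq (787 peaks), the median position was 42.7% of the way from the start to the end of the host. Of 5 equal parts the first held 18.0% of the peaks and the last 9.02%. The 5 kb rule keeps peaks from both ends, which lowers the shares of the outer parts by construction, most in short hosts. Of the host genes 350 (45.6%) also had an EPZ6438 H3K4me3 peak within 1 kb of either end. Among hosts with tested RNA the share was 52.0%, and among the 101 without it 3.96%.

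Few distant peaks overlapped H3K27me3, but a larger share than of near ones. In the DMSO H3K27me3 list 275 distant peaks (11.7%, Wilson 95% interval 10.5 to 13.1%) had an overlap, against 1.10% of the peaks within 5 kb of a gene end. In the EPZ6438 H3K27me3 list 116 had one (4.94%, 4.14 to 5.90%), against 0.296%. These intervals treat peaks as independent and cover counting error only. The share in the DMSO H3K27me3 list was highest outside genes and in both H3K4me3 lists (24.3%) and lowest inside genes and in the EPZ6438 list only (4.04%). It was 16.0% of distant peaks under 300 bp and 3.95% of those of at least 1000 bp.

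**Figure D3:**
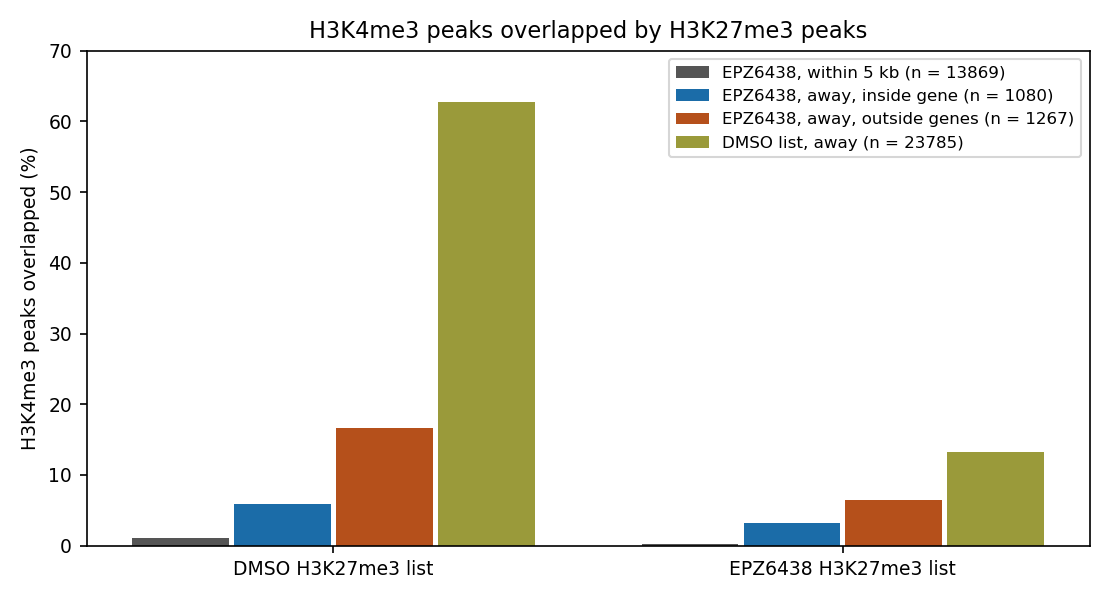
Share of H3K4me3 peaks (percent, bars from 0) overlapped by the DMSO and the EPZ6438 H3K27me3 list, for near and distant peaks of the EPZ6438 list and distant peaks of the DMSO list. There is 1 merged list per bar and so no error bar. Distant peaks of the DMSO list stand highest at 62.8% in DMSO H3K27me3, against 16.7% and 5.83% for distant EPZ6438 peaks outside and inside genes.

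By the same distance rule the DMSO H3K4me3 list held 23785 distant peaks of 40113. They had a median width of 201 bp with a list minimum of 177 bp, 62.8% overlapped DMSO H3K27me3, and 4.50% overlapped the EPZ6438 H3K4me3 list. Of the 275 EPZ6438 peaks with DMSO H3K27me3, 88 were also in the EPZ6438 H3K27me3 list. A further group of 83 peaks, 68 of them outside genes, was in DMSO H3K27me3 and in neither DMSO H3K4me3 nor EPZ6438 H3K27me3. At the other extreme 58 distant peaks (2.47%, against 0.173% of near peaks) were in all 3 other lists, 41 of them outside genes. The widest of these lay in Macrod1 (chr19:7165306-7166307, 1002 bp). Whether signal shared by all antibodies adds to such overlaps was not tested.

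The RNA comparison asked whether genes with a distant peak differed between arms. Levels are RPKM, and changes are differences of log2(RPKM + 0.1), EPZ6438 minus DMSO, tested with limma over 14213 genes. Cyp26b1, Nhsl1, Tnfrsf19, Inhba and Mef2c rose among the hosts, and Rspo2, Pappa2, Axl and Gpr126 fell. Of 767 host genes 666 passed the filter on low values; 42 of them rose (6.31%) and 30 fell (4.50%), while 594 did not pass the test. Over all tested genes 7.04% changed, 3.8% rising and 3.24% falling, and over genes longer than 10 kb, which alone can hold a distant peak, 4.51% rose and 3.54% fell. The median log2 change was -0.04 in hosts and -0.03 in all tested genes. Shares moved with gene span: among genes of over 10 to 50 kb 4.10% of hosts and 3.38% of other genes rose, and above 200 kb 6.92% of hosts and 8.84% of other genes did. The counts rested on single libraries. Hosts rising numbered 14 without DMSO replicate 2, and 16, 17 and 14 without EPZ6438 replicate 1, 2 and 3; hosts falling numbered 4, 13, 11 and 10.

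The nearest genes of the distant peaks outside genes numbered 986, of which 553 were protein coding and 370 were listed at 0 throughout. Of the 436 tested, 27 rose (6.19%) and 21 fell (4.82%), beside the 3.8% and 3.24% over all genes. Without DMSO replicate 2 the numbers were 11 and 3, and without EPZ6438 replicate 1, 2 and 3 they were 16 and 5, 13 and 5, and 11 and 5. A nearest gene is a neighbour by position, and nothing here ties a peak to its RNA.

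**Figure D4:**
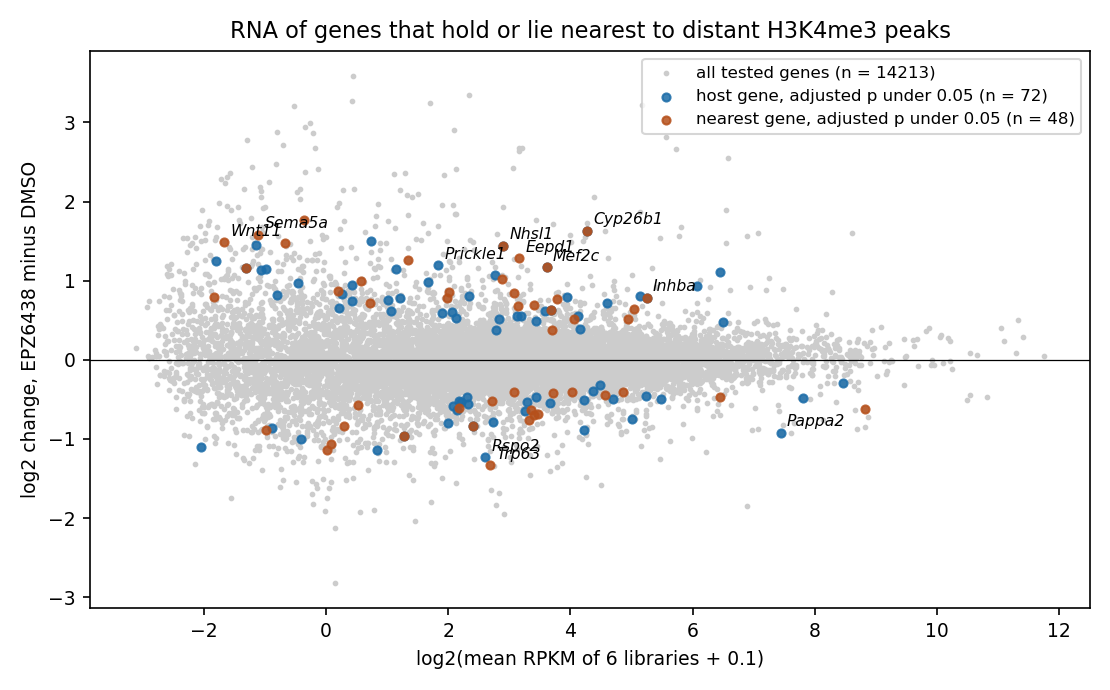
Log2 change (EPZ6438 minus DMSO, vertical axis) against log2(mean RPKM of 6 libraries + 0.1) for all 14213 tested genes in grey, with host genes (blue) and nearest genes (orange) past an adjusted p under 0.05. A gene in both sets has both colours. Coloured points lie on both sides of 0, with Cyp26b1 (1.63) highest among the abundant ones and Trp63 (-1.34) lowest.

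Cyp26b1, which encodes an enzyme that degrades retinoic acid, had 8.34, 10.1 and 9.61 RPKM with DMSO and 28.2, 29.5 and 29.6 RPKM with EPZ6438. All EPZ6438 libraries were well above all DMSO libraries (log2 change 1.63, SE 0.09, limma adjusted p = 0.000313). It held 3 distant peaks within chr6:84586506-84588457, the widest of which (761 bp) was in the EPZ6438 list only. The remaining ones, of 367 and 329 bp, overlapped the DMSO list by 253 and 240 bp. Cyp26b1 was also nearest to a peak outside genes (chr6:84454889-84455144, 116270 bp away) that was in all 3 other lists. Nhsl1, related to the Nance-Horan syndrome gene, had 3.85, 3.86 and 3.97 RPKM with DMSO and 10.5, 10.6 and 11.1 RPKM with EPZ6438 (log2 change 1.44, SE 0.09, adjusted p = 0.000458). The arms were far apart. Both peaks inside the gene, at chr10:18431714-18431943 and chr10:18432142-18432470, were in the EPZ6438 list only. Nhsl1 was also nearest to a peak outside genes (chr10:18379667-18379895, 10427 bp away) that was in all 3 other lists.

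Inhba, the inhibin beta A subunit that forms activin A, had 26.8, 27.4 and 29.3 RPKM with DMSO and 46.8, 48.4 and 48.8 RPKM with EPZ6438 (log2 change 0.79, SE 0.07, adjusted p = 0.00152). It held 3 distant peaks within chr13:16017562-16018981, the widest of them (704 bp) in the DMSO list. Mef2c, a MADS-box transcription factor of muscle and bone, had 8.63, 7.46 and 6.22 RPKM with DMSO and 17.4, 14.8 and 18.0 RPKM with EPZ6438, with no overlap (log2 change 1.17, SE 0.14, adjusted p = 0.00436). It held a 344 bp peak (chr13:83524500-83524843) and was also the nearest gene of the most remote distant peak, 708268 bp away. Tnfrsf19, a receptor of the tumour necrosis factor family, rose from 46.2 ± 3.34 to 87.8 ± 2.07 RPKM (SD, n = 3 per arm; adjusted p = 0.00118). Its 2 distant peaks were in the EPZ6438 list only.

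Prickle1 had 2.03, 1.80 and 2.37 RPKM with DMSO and 4.96, 5.25 and 4.34 RPKM with EPZ6438 (log2 change 1.20, SE 0.15, adjusted p = 0.00436). Its distant peak (chr15:93519173-93519748) lay over 278 of the 300 bases of the window printed above, with 177 bp in the DMSO list. Rerg, a Ras-like growth inhibitor, and Tns1, the focal adhesion protein tensin, also rose, to 19.3 ± 0.511 and 9.11 ± 0.594 RPKM from 11.1 ± 0.933 and 4.29 ± 0.562 (SD, n = 3 per arm).

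Among falling hosts, Pappa2 had 234, 241 and 208 RPKM with DMSO and 128, 112 and 120 RPKM with EPZ6438 (log2 change -0.92, SE 0.09, adjusted p = 0.00193). Its distant peak (chr1:158958287-158958940, 654 bp, 136 bp in the DMSO list) covered 139 bases of the window printed above. Rspo2, a secreted amplifier of Wnt signalling, had 8.86, 8.70 and 7.75 RPKM with DMSO and 3.74, 3.68 and 3.18 RPKM with EPZ6438 (log2 change -1.23, SE 0.11, adjusted p = 0.00168). Its 2 distant peaks, at chr15:43135759-43136061 and chr15:43136121-43136349, were in the EPZ6438 list only. They were 303 and 229 bp wide, the second at the list minimum. Their absence from the DMSO list does not show that the mark was absent there. Axl, a receptor tyrosine kinase, fell from 40.2 ± 3.51 to 23.8 ± 0.228 RPKM, and Gpr126, an adhesion receptor, from 24.1 ± 2.44 to 12.9 ± 0.860 RPKM. The actin regulators Lima1, Ablim1 and Eps8 and the nuclear receptor Nr2f2 fell as well (log2 changes -0.49, -0.65, -0.80 and -0.83), and these 4 calls were lost without DMSO replicate 2 (adjusted p up to 0.0586).

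Of nearest genes that are not hosts, Eepd1, an endonuclease-family gene, had 4.85, 4.97 and 5.51 RPKM with DMSO and 12.3, 13.0 and 12.6 RPKM with EPZ6438 (log2 change 1.29, SE 0.09, adjusted p = 0.000704). Its peak at chr9:25457726-25457954 lay 23593 bp away and was in both H3K27me3 lists. Sema5a, an axon guidance gene, rose from 0.132 ± 0.0238 to 0.593 ± 0.0555 RPKM, a low level, beside peaks of 458 and 617 bp in the EPZ6438 list only. Trp63, the p53 family gene p63, had 9.54, 9.74 and 8.11 RPKM with DMSO and 3.61, 3.42 and 3.62 RPKM with EPZ6438 (log2 change -1.34, SE 0.11, adjusted p = 0.00118). Its nearest distant peaks, 25385 and 26142 bp away, were 234 and 229 bp wide. Xdh, xanthine dehydrogenase, fell from 13.5 ± 0.789 to 8.36 ± 0.0249 RPKM.

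**Figure D5:**
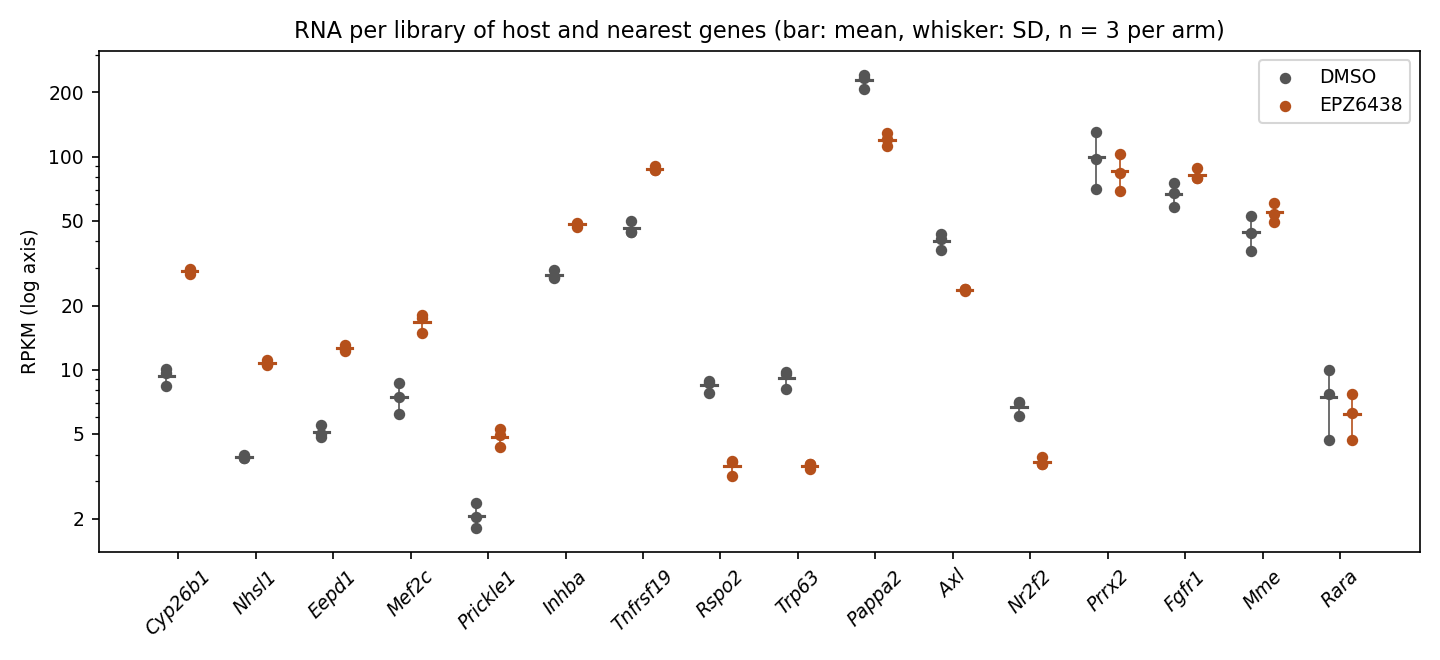
RPKM (log axis) in each of the 3 DMSO (grey) and 3 EPZ6438 (orange) libraries for host and nearest genes of distant peaks, with the mean as a bar and the SD as a whisker. From Cyp26b1 to Nr2f2 the arms do not overlap, whereas in Prrx2, Mme and Rara, which hold wide or many distant peaks, they do.

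Distant peaks on a start window of their own host were found in 164 genes, of which 163 were tested; 11 rose (6.75%) and 10 fell (6.13%), beside 6.31% and 4.50% of all tested hosts and 3.8% and 3.24% of all tested genes. Among them Lrrfip1 rose to 30.1 from 18.2 RPKM and Prr5l, of the mTORC2 complex, to 6.34 from 3.59 RPKM, while Runx3, a Runt transcription factor of chondrocytes and lymphocytes, rose to 10.3 from 6.97 RPKM and lost its call without DMSO replicate 2 or any EPZ6438 library. Hosts of distant peaks with DMSO H3K27me3 had low RNA (median 1.32 RPKM with DMSO over the 28 tested of 59, against 6.83 RPKM over all tested hosts). Of the 28, Dync1i1, Cacna1c, Nlrc5, Ncald and Mdga1 rose (17.9%) and Aff3 fell (3.57%), and each of these 6 calls was lost without at least 1 library. Nearest genes of the peaks outside genes with DMSO H3K27me3 were not low (median 7.45 RPKM with DMSO over the 74 tested of 198). Of these 74, 5 rose (6.76%) and 2 fell (2.70%). For the 83 peaks in DMSO H3K27me3 alone, 0 of 5 tested hosts and 0 of 21 tested nearest genes passed in limma or by voom (1 and 6 at an unadjusted p under 0.05).

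Of the gene lists, 11 of 52 Wnt pathway genes were host or nearest gene (21.2%), as were 3.95% of all genes in the table and 7.49% of all tested genes. The 11 were the ligands Wnt10a and Wnt11, the receptors Fzd8, Lrp6, Ror2 and Lgr5, the agonist Rspo2, the ubiquitin ligase Znrf3, and Apc, Tcf7l1 and Tcf7l2 inside the cell. Of the 10 tested, Wnt10a and Wnt11 rose and Rspo2 fell; over the whole list 15 rose, 5 fell and 22 of 42 did not pass, with a median log2 change of 0.37 beside -0.03 over all genes, of which 3.8% rose and 3.24% fell. Wnt10a had 4.95, 5.87 and 7.03 RPKM with DMSO and 10.8, 10.5 and 10.8 RPKM with EPZ6438 (log2 change 0.85, SE 0.14, adjusted p = 0.0128), with a 361 bp peak at chr1:74817232-74817592, 13053 bp away. Wnt11 was low in all libraries, at most 0.117 RPKM with DMSO and 0.222 to 0.467 RPKM with EPZ6438. Both calls were lost without DMSO replicate 2 or EPZ6438 replicate 2 or 3, Wnt10a also without EPZ6438 replicate 1 and Wnt11 without DMSO replicate 3 (adjusted p up to 0.130).

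Among the osteoblast genes, Mef2c, Col1a2 and Ank were host or nearest gene, and of these Mef2c rose; over the list 15 of 28 tested rose and 1 fell, beside 3.8% and 3.24% of all tested genes. A list of 17 H3K4 methylation genes joined methyltransferases, subunits of their complexes and demethylases. Of these, the subunit genes Ash2l and Dpy30 and the demethylase gene Kdm2b held distant peaks. In limma or by voom 0 of 17 passed the test (1 at an unadjusted p under 0.05). BMP and TGF-beta signalling had Inhba and Smad7, the Hedgehog list Gli3 and the chondrocyte list Sox5, and of these Inhba passed. Over the whole chondrocyte list 5 of 9 tested genes rose and 0 fell, with a median log2 change of 0.59. Over the Hedgehog list 2 of 16 rose and 2 fell, and over the BMP and TGF-beta list 3 of 32 rose and 3 fell. A list of 6 genes held Ezh2, Ezh1, Eed and Suz12 of Polycomb repressive complex 2 and the H3K27 demethylase genes Kdm6a and Kdm6b. None of them was host or nearest gene. Pcgf5, a Polycomb group gene outside that list, was both. Ezh2 RNA was 14.4 ± 1.79 RPKM with DMSO and 14.8 ± 0.676 RPKM with EPZ6438 (limma adjusted p = 0.839).

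The RNA libraries held 18807156 to 25365513 reads in genes, and DMSO replicates 1 and 3 lay farthest apart (chi-square per gene 61.7, others 6.47 to 22.9). Osteoblast lineage genes were present in every library. Runx2 had 28.7 to 31.9 RPKM with DMSO and 42.3 to 48.0 RPKM with EPZ6438. Sp7 had 52.6 to 55.8 RPKM with DMSO and 99.1 to 105 RPKM with EPZ6438. Spp1 went the other way, from 178 to 233 RPKM with DMSO to 128 to 147 RPKM with EPZ6438, and the arms overlapped in Col1a1 and Col1a2. Summed markers of blood (0.129 to 0.394 RPKM), endothelial (0.0768 to 0.121) and epithelial cells (0.378 to 0.610) were near 0, with Cdh5 and Kdr at 0. Skeletal muscle markers summed to 0.712 to 1.08 RPKM with DMSO and 1.45 to 1.95 RPKM with EPZ6438, with no overlap; Myod1, Myog, Myf5 and Pax7 were at 0, and the 1 tested, Des, rose. The endothelial markers Cdh5 and Tek were host or nearest gene of a distant peak. Adipocyte markers summed to 3.00 to 4.04 RPKM. The summed neuronal markers were 8.50 to 10.3 RPKM with DMSO and 31.5 to 39.5 RPKM with EPZ6438; of the 3 tested, Tubb3 rose and Map2 and Syp did not pass. The summed smooth muscle markers were 2170 to 2310 RPKM with DMSO and 1630 to 1660 RPKM with EPZ6438; of the 4 tested, Acta2 fell and Tagln, Lmod1 and Cnn1 did not pass. Their part in the changes of host and nearest genes was not tested.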

How the data were processed

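RNA was compared between 3 DMSO and 3 EPZ6438 samples, and 4 merged peak lists were compared by position. The authors deposited gene expression as RPKM per the file headers, with gene positions and lengths, for 43346 genes, and peak positions as other values without height or score. The submitters' processing notes name STAR 2.6.1c, Subread, MACS2, HOMER, DiffBind, Picard, FastQC, bcl2fastq and the build mm10. For their roles and thresholds, the annotation and the strand setting, the sources used here give nothing. Peak widths and numbers depend on such settings.

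RPKM times length gave whole reads for 100% of values (tolerance 0.001). Genes with at least 10 reads in 3 libraries (14213) were tested with limma 3.58.1 (trend, two-sided, Benjamini-Hochberg over all tested genes) in R 4.3.3 on log2(RPKM + 0.1), which understates changes of low genes. On simulated reads (14053 genes) limma recovered 52% of genes changed 1.5-fold and 84% at 2-fold, with 6.21% false calls. The simulation gave every gene the same dispersion, and libraries of an arm differed only in size. Real libraries were uneven, with DMSO replicates 1 and 3 farthest apart, so these rates need not hold for them. Intervals were compared in Python 3.11.15 with pandas 2.3.3, and start windows and sequences are from RefSeq (GRCm38.p6). Reads carry no molecular identifiers. The intervals on peak shares and widths treat peaks as independent and cover counting error only.

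The members and lists were chosen with earlier results of these data known. Named by rule were the 5 widest peaks per class, the 2 farthest and the 2 at the limit, up to 5 hosts with most peaks, up to 8 rising and 8 falling host and nearest genes by adjusted p, and up to 4 genes per list. Start windows, hosts with H3K27me3 and the genes named with them were chosen after their values were seen. Reads of overlapping or antisense genes cannot be told apart. Some items are not reported here.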

Additional observations from a re-analysis of the deposited data

How the results depend on the processing

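Of 1027 values of single named genes under the RNA alternatives, 885 kept their side of the threshold, 138 lost and 4 gained the call, and 11 values of 9 genes changed sign, in 0 of which either value passed the threshold; 21 of 52 named genes past the threshold passed in every RNA alternative run. For values below the cause was not tested, except that fewer peaks, genes or samples lower counts by construction.

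With a limit of 2 kb, 53.2% of peaks lay inside genes, the median width was 291 bp, 9.54% and 3.95% overlapped DMSO and EPZ6438 H3K27me3, and 57 host genes fell. With 10 kb the share inside genes was 43.5% and the median width 275 bp, and with distance to tested genes only the share was 39.2%. Among the 611 peaks of at least 400 bp, 68.4% lay inside genes, 65.5% were in the DMSO H3K4me3 list, the median was 563 bp, and 4.42% and 1.96% overlapped H3K27me3 of DMSO and EPZ6438; 20 hosts rose and 15 fell, and 7 nearest genes rose and 3 fell. Joining peaks under 1 kb apart gave 42.7% inside genes, 45.8% in the DMSO H3K4me3 list and 13.3% in DMSO H3K27me3. With at least 50% of a peak covered, the DMSO shares were 32.8% for H3K4me3 and 10.1% for H3K27me3.

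The next 4 alternatives were chosen after seeing the data. Requiring RefSeq ends and starts to be over 5 kb away too left 1404 peaks, with 38.3% inside genes, 38.7% in the DMSO H3K4me3 list, a median of 260 bp, and 16.3% and 6.84% in H3K27me3 of DMSO and EPZ6438; 25 hosts rose, 15 fell and 17 nearest genes rose. Without the peaks in all 3 other lists the H3K27me3 shares were 9.48% and 2.53%. Counting only DMSO H3K4me3 peaks as wide as the narrowest EPZ6438 peak, 28.0% of distant peaks overlapped that list. Leaving out chromosome 6 moved none of these results beyond its interval or 1.5 times.

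With no filter on low values 628 genes changed, 23 hosts rose and 18 fell, and 17 nearest genes rose and 11 fell. Voom on recovered reads called 47 falling hosts, and with the nearest tested gene in place of any gene 48 rose and 41 fell. Median-of-ratios scaling gave 614 rising and 439 falling genes. Leaving out 1 library at a time gave 323 to 978 changed genes, 14 to 36 rising and 4 to 37 falling hosts, and 11 to 28 rising and 3 to 23 falling nearest genes, lowest without DMSO replicate 2 in each count (for rising hosts and rising nearest genes equally without EPZ6438 replicate 3).

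The replicate numbers were not shown to pair the samples: deviations from the arm means correlated at 0.41, 0.08 and 0.06 across genes for the same number, and DMSO replicate 3 correlated best with EPZ6438 replicate 2 (0.33). With the replicate number as a block 1051 genes changed, 40 hosts rose and 32 fell, and 28 nearest genes rose and 26 fell. Peak lists without height or depth limit what can be said of a peak missing from a list.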

Other observations

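Distant peaks were spread unevenly over chromosomes. Chromosome 6 held 199 of them (8.48%), against 5.70% of the peaks within 5 kb of a gene end, and 11.5% of the distant peaks of the DMSO list. Of the 58 distant peaks in all 3 other lists 12 were on chromosome 6. Chromosome 7 held 3.75% of distant and 6.55% of near peaks, and chromosome 11 held 5.97% and 8.88%. The share of distant peaks in the DMSO H3K4me3 list ran from 32.8% on chromosome 15 to 55.7% on chromosome 19, leaving aside the 4 peaks on chromosome Y. It also fell with distance, from 48.0% of peaks over 5 to 10 kb from a gene end to 30.2% of the 189 over 100 kb away, where the median width was 243 bp and 23.3% lay inside a gene.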
